A study of Mus musculus with 2 samples.

Results

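The 10 entries of the microRNA (miRNA) table whose names begin with miR-26 or miR-101 and a letter, both arms included, were taken from the 1907 listed: 5 are miR-26 entries and 5 are miR-101 entries. Entries were picked by name, without a measured value in the rule, but the families were chosen with earlier results of these data known. Small RNAs were sequenced from total RNA of mouse embryonic stem cells with Dicer knocked out, strain background 129/Ola and stage E14 by the labels, grown with serum and the cytokine LIF on gelatine. The 2 samples, Dicer_KO1 and Dicer_KO2 (described as Dicer_KO_C1 and Dicer_KO_H11), are called library 1 and library 2 and form 1 group; the labels leave unsaid if these were separate clones or cultures, so the spread between them may be technical. Both carry the knockout, no sample with Dicer was analysed here, and no level below can therefore be set against that of normal cells.

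Dicer cuts a precursor hairpin into a duplex of a 5p and a 3p strand, 1 of which is usually retained by an Argonaute protein as the mature miRNA. The miRNA finds its targets mainly through its seed, bases 2 to 8, which pairs with sites in the 3′ untranslated region (UTR) of mRNAs. The miR-26 and miR-101 families are known for binding the mRNA of Ezh2, the histone methyltransferase of the Polycomb repressive complex that keeps developmental genes silent in stem cells. The miR-26 hairpins lie in genes of the Ctdsp family of small C-terminal domain phosphatases.

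The sequences of the arms usually retained are shown first because the seed shows which entries can match the same sites. Family sums below are by name, whatever the seed. The sequences come from RefSeq (GRCm38.p6), run 5′ to 3′, and carry the seed in capitals.
mmu-miR-26a-5p: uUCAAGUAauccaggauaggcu
mmu-miR-26b-5p: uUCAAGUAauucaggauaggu
mmu-miR-101a-3p: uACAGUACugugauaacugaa
mmu-miR-101b-3p: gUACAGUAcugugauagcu
mmu-miR-101c: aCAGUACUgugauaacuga
The miR-26 arms share the seed UCAAGUA, which no other of the 1623 table entries with a RefSeq sequence carries. With positions counted from 1 at the 5′ end, miR-26b-5p differs from miR-26a-5p by C11U and C21U, both outside the seed, and is 21 bases long against 22. The miR-101 entries have 3 different seeds, because their annotated 5′ ends differ; miR-101b-3p starts 1 base before miR-101a-3p and miR-101c 1 base after it: ACAGUAC in miR-101a-3p, UACAGUA in miR-101b-3p and CAGUACU in miR-101c. All 19 bases of miR-101c lie inside miR-101a-3p, starting at its base 2, so a read trimmed at its ends could match both. A run of 15 bases, uacaguacugugaua, is shared by miR-101a-3p and miR-101b-3p. The closest other seed to that of miR-101a-3p was ACAGUAU in miR-144-3p, which had 0 counts in both libraries.

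The hairpins show where each arm lies and which arms can be told apart; arms are in capitals.
Mir26a-1: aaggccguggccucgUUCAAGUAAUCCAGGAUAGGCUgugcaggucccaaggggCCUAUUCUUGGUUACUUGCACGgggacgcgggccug
Mir26a-2: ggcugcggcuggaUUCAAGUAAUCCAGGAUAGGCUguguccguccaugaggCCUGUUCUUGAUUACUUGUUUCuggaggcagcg
Mir101a: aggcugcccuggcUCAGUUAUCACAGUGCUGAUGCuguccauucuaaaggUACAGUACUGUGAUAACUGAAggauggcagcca
Mir101b: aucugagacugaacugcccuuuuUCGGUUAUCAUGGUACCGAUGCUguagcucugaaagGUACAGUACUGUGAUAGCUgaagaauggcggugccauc
Mir26a-1 lies in an intron of Ctdspl on chromosome 9 at 119031796 to 119031885, plus strand. Mir26a-2 lies in Ctdsp2 on chromosome 10 at 126995530 to 126995613, plus strand, in an intron of 1 of the 3 transcripts that span it and in an exon, UTR or noncoding, of the other 2. Mir26b lies in an intron of Ctdsp1 on chromosome 1 at 74394310 to 74394394, plus strand. Mir101a lies in an exon of the noncoding gene E130102H24Rik on chromosome 4 at 101346945 to 101347027, minus strand, and Mir101b in an intron of Rcl1 on chromosome 19 at 29135279 to 29135375, plus strand. Mir101c, on chromosome 9 at 3038669 to 3038743, minus strand, overlaps no other annotated gene. The 5p arm of miR-26a is identical in both of its hairpins, so its counts cannot be assigned to either, whereas the 3p arms differ at 6 positions.

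Whether the Ezh2 mRNA holds the matching sites was checked in the annotation. Of 5 protein-coding Ezh2 transcripts with an annotated stop codon, 4 have a 3′ UTR, each of 402 bases, and all 4 hold the same matches. The matches to bases 2 to 8 are in capitals, in DNA letters, with the preceding 15 bases and the base that follows.
Ezh2 site for miR-26a-5p and miR-26b-5p: aatttgaataaagaaTACTTGAa
Ezh2 first site for miR-101a-3p: cttcaggaaccttgaGTACTGTg
Ezh2 second site for miR-101a-3p: ttctgaatttgcaaaGTACTGTa
The miR-26 match starts at base 248 of the UTR (chromosome 6, 47530287 to 47530293, minus strand, GRCm38). The miR-101a-3p matches start at base 59 (47530476 to 47530482) and at base 114 (47530421 to 47530427). The letters TACTGTA, which match miR-101b-3p, occur 1 time, at base 115, and the letters AGTACTG, which match miR-101c, at bases 58 and 113, so the miR-101 matches overlap at these positions. Among 1798 genes whose longest 3′ UTR was within 20% of this length, 2.89% held TACTTGA, 2.73% GTACTGT, 2.67% TACTGTA and 2.06% AGTACTG on the transcribed strand. Of the host genes, Ctdsp2 has 1 match to the miR-26 seed in its 3489-base UTR, which 23.1% of UTRs of like length hold, and the 3′ UTRs of Ctdsp1 and Ctdspl have none. A match describes letters only, and the level of Ezh2 mRNA was not analysed here.

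**Figure D1:**
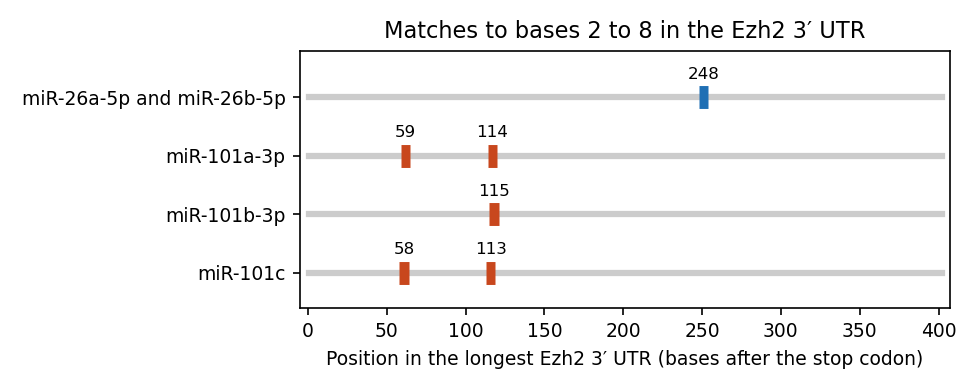
Matches to bases 2 to 8 of the miR-26 and miR-101 arms along the 402-base Ezh2 3′ UTR (x axis, bases after the stop codon; 1 row per arm; the number above each bar is the first base of the match). The miR-101 matches overlap around bases 58 and 113, and the single miR-26 match lies downstream at base 248.

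The libraries were shallow, with 45222 counts assigned to miRNAs in library 1 and 37476 in library 2, of which the entry miR-3963 alone held 32.3% and 25.4%. Without the 10 most abundant entries, 5793 counts remained in library 1 and 4633 in library 2. Shares of the table total are therefore set largely by those 10. Levels are given as counts per 1000000 of the table total (CPM); 1 count is worth 22.1 CPM in library 1 but 26.7 CPM in the less deep library 2. An entry with 0 counts is allowed up to 3 counts, or 0.00663% of library 1 and 0.00801% of library 2, as a one-sided limit; two-sided Poisson intervals at 0 reach 3.69 counts. Of the stem cell markers, the 5 listed 3p arms of the miR-290 cluster were present, with 323 and 368 counts together, and the 3 listed miR-302 arms were at 0 in both libraries. The listed muscle and liver miRNAs were at 0 in both, the 3 blood miRNAs had 3 counts in each library, all of miR-142a-3p, and the 2 neural ones had 18 and 6, all of miR-9-5p. Intervals and limits here are 95% and cover counting error only, since reads without molecular identifiers are not independent molecules. Comparisons of level between different miRNAs also carry the unequal efficiency with which small RNAs of different sequence are ligated and amplified.

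Both families had counts, at low levels, and miR-26 held most of them. Dicer makes the duplexes that hold these arms, and both samples are labelled as its knockout. How the counts arose in these samples was not tested. The 10 entries had 93 counts in library 1 (0.206%, Wilson interval 0.168 to 0.252) and 83 in library 2 (0.221%, 0.179 to 0.274), a mean of 0.214% ± 0.0112 (SD, n = 2). Of the 10, 7 had a count in either library, against 22.7% of all entries of the table, and 5 had a count in both. The 3 at 0 in both libraries were miR-101b-3p, miR-101b-5p and miR-26a-1-3p. With the minimum of 10 counts used to call a miRNA detected, only miR-26a-5p of the 10 was detected in both libraries, against 4.20% of all entries; this number was 3 with a minimum of 3 counts and 5 with a minimum of 10 CPM, which 1 count exceeds.

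**Figure D2:**
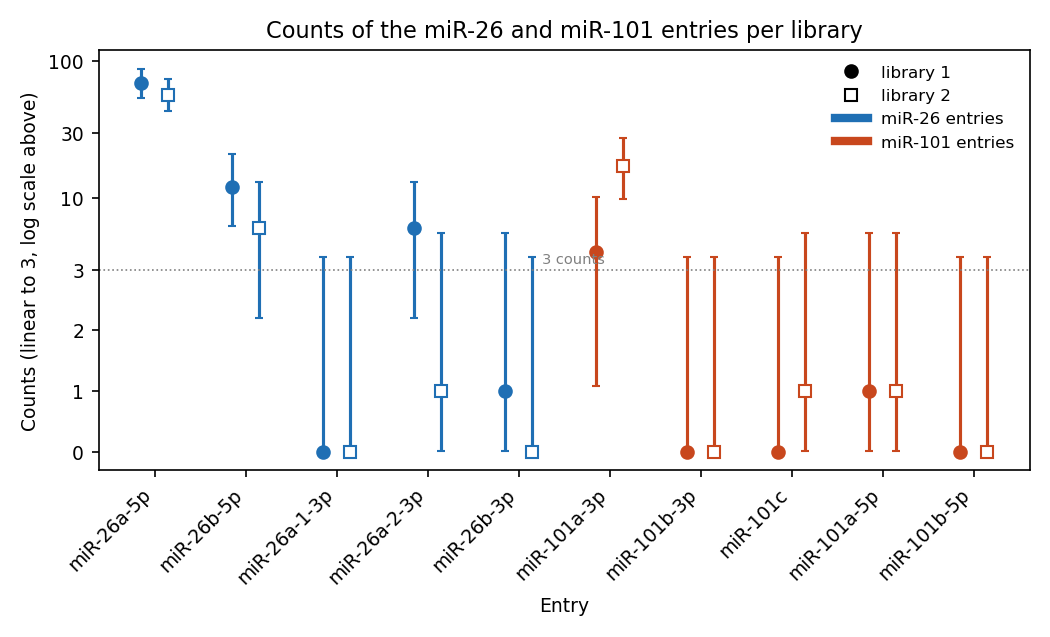
Counts of the 10 entries (x axis) in library 1 (filled circles) and library 2 (open squares), with exact 95% Poisson intervals; the y axis is linear up to 3 counts and logarithmic above, and the dotted line marks 3 counts. The entry miR-26a-5p stands above all others in both libraries, and miR-101a-3p has 4 counts in library 1 and 17 in library 2.

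The arm miR-26a-5p, known as an abundant miRNA of many differentiated tissues, was the leading member. The entry mmu-miR-26a-5p reached 69 counts in library 1 and 57 in library 2, which is 1526 and 1521 CPM, a mean of 1523 ± 3.42 (SD, n = 2). The libraries were nearly equal, and the small SD is far below the counting error of either value, whose exact Poisson intervals ran from 1187 to 1931 CPM and from 1152 to 1971 CPM. It ranked 30th of the 347 entries with a count in library 1 and 28th of 344 in library 2. Among entries with miRBase numbers of 1000 or below it ranked 20th of 280 and 19th of 287.

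Its paralogue mmu-miR-26b-5p, which carries the same seed, was lower in both libraries. Its counts were 12 in library 1 and 6 in library 2, equal to 265 and 160 CPM, a mean of 213 ± 74.4 (SD, n = 2). In library 1 miR-26a-5p had 5.75 times the counts of miR-26b-5p (exact interval 3.09 to 11.7), and in library 2 it had 9.50 times (4.11 to 27.0). These intervals overlap, so the ratio was not resolved as different between the libraries. Together the arms with the seed UCAAGUA summed to 81 counts in library 1 and to 63 in library 2.

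The 3p arms of the miR-26 hairpins, the strands usually discarded, had few counts. For miR-26a-2-3p there were 6 counts in library 1 and 1 in library 2, which is 4.97 times the CPM in library 1 with a counting interval of 0.603 to 229 that includes equal levels, and miR-26b-3p had 1 and 0. The arm miR-26a-1-3p had 0 in both. All 7 of the 3p counts of miR-26a thus fell on the sequence of Mir26a-2, shown above with its arms in capitals, and 0 on that of Mir26a-1. The arms miR-26a-2-3p and miR-26b-3p share bases 2 to 8, CUGUUCU, with miR-6932-3p and miR-7039-3p, which had 0 counts in both libraries.

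For the family as a whole, miR-26 held 88 counts in library 1 (0.195%, Wilson interval 0.158 to 0.240) and 64 in library 2 (0.171%, 0.134 to 0.218), a mean of 0.183% ± 0.0168 (SD, n = 2). Its 5p arms made up 92.0% of the family's counts in library 1 (84.5 to 96.1) and 98.4% in library 2 (91.7 to 99.7), averaging 95.2% ± 4.52 (SD, n = 2).

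The only miR-101 entry with more than 1 count in a library was miR-101a-3p. mmu-miR-101a-3p had only 4 counts in library 1 but 17 in library 2, equal to 88.5 and 454 CPM, a mean of 271 ± 258 (SD, n = 2). It was thus low in library 1 and higher in library 2, and ranked 143rd and 70th among entries with a count. The exact Poisson intervals, 24.1 to 226 CPM and 264 to 726 CPM, did not overlap.

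Each of the other miR-101 entries was at or near the detection limit. The arm miR-101a-5p, from the opposite strand of the same hairpin, had 1 count in each library. The entry miR-101c had 0 and 1, and its sequence is contained in miR-101a-3p, so that this count is uncertain. Both arms of miR-101b, mmu-miR-101b-3p included, were at 0, which by the one-sided limit of 3 counts allows each a share of up to 0.00663% in library 1 and 0.00801% in library 2. Reads ending inside the 15 shared bases would not separate miR-101a-3p from miR-101b-3p, and how such reads were assigned is not given in the sources used here.

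The miR-101 family summed to 5 counts in library 1 (0.0111%, Wilson interval 0.00472 to 0.0259) and 19 in library 2 (0.0507%, 0.0325 to 0.0792), which averages to 0.0309% ± 0.0280 (SD, n = 2). That value rests on which library is taken, since it was 0.0507% without library 1 and 0.0111% without library 2. Of the counts of named arms, 3p arms made up 4 of 5 in library 1 (80.0%, 37.6 to 96.4) and 17 of 18 in library 2 (94.4%, 74.2 to 99.0), averaging 87.2% ± 10.2 (SD, n = 2).

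The families led with opposite strands, 5p for miR-26 and 3p for miR-101. Over both libraries 5p arms held 94.7% of the 133 counts of miR-26a, 94.7% of the 19 counts of miR-26b and 8.70% of the 23 counts of miR-101a. Over the 101 hairpins listed with both arms and holding at least 10 counts, the median 5p share was 79.1%, and the leading arm, whichever it was, held a median of 92.8%. In 37 of these hairpins the 5p arm held over 90% of the counts, and in 22 the 3p arm did. The arm shares of miR-26 and miR-101a thus lay within the range of other hairpins in these libraries.

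**Figure D3:**
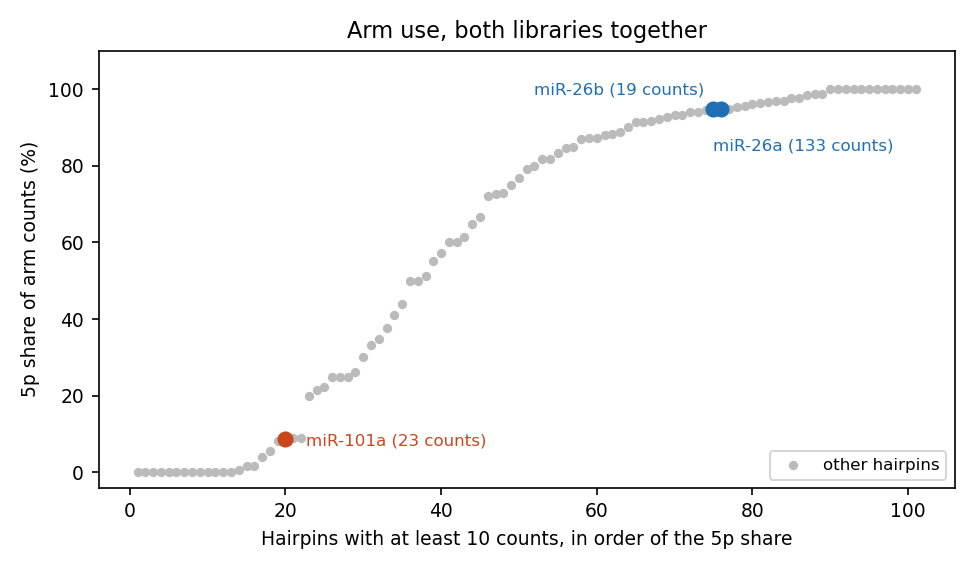
Share of counts on the 5p arm (y axis, percent, both libraries together) for 101 hairpins with at least 10 counts, in order of that share (x axis); numbered copies of a hairpin are joined. The points of miR-26a and miR-26b lie at 94.7% and that of miR-101a at 8.70%.

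By counting error alone, the balance between the families differed between the libraries. In library 1 miR-26 had 17.6 times the counts of miR-101 (exact interval 7.26 to 55.5), and in library 2 it had 3.37 times (1.99 to 5.95). The intervals do not overlap, and they rest on 5 and 19 counts of miR-101, of which miR-101a-3p held 4 and 17. Further variation between libraries is not in these intervals. In library 1 miR-101a-3p had 0.333 times the counts of miR-26b-5p (0.0784 to 1.10), which does not separate the pair, and in library 2 it had 2.83 times (1.07 to 8.78). In both libraries miR-26a-5p was highest, at 17.3 times miR-101a-3p in library 1 (6.44 to 65.1) and 3.35 times in library 2 (1.92 to 6.15).

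The libraries were compared entry by entry over the whole table with two-sided Fisher's exact tests of each count against all others of its library, for the 129 miRNAs with at least 10 counts in total. A call needed a Benjamini-Hochberg adjusted p below 0.05 and a 2-fold difference in CPM; 7.75% of the 129 were called, and 4.65% were called as higher in library 2. With 1 library on each side this compares 2 libraries of the same group, not conditions. Of the 10 entries 3 reached the count minimum, and the arm miR-101a-3p was called: its CPM was 5.13 times as high in library 2 (interval 1.67 to 20.9; Fisher's exact test, adjusted p = 0.00926). The ratio for miR-26a-5p was 0.997 (Fisher's exact test, adjusted p = 1). For miR-26b-5p it was 0.603 (Fisher's exact test, adjusted p = 0.657). The exact intervals allow ratios between 0.689 and 1.44 for miR-26a-5p and between 0.186 and 1.74 for miR-26b-5p, so equal levels were not shown.

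The difference of miR-101a-3p was among the widest in the table but rests on 21 counts. On the log2 scale it was 2.36 towards library 2. Over the 129 miRNAs the median was -0.05 and the median absolute difference 0.52. With counts of 3 or fewer set to 3, 3 of the 129, miR-101a-3p included, differed by at least as much in either direction. Where this raised a count, the size of the difference, in either direction, is a lower bound, so more miRNAs may differ as much. The arm miR-125a-5p, with 2 and 9 counts, had such a bound, at 1.86. Of the 62 miRNAs with 10 to 40 counts, 22 differed by at least 2-fold and 2 were called. Fisher's exact test takes in counting noise only. With the variation between the libraries estimated over all tested miRNAs (edgeR's exact test, common dispersion 0.0749, a coefficient of variation of 0.274), the call was lost (adjusted p = 0.465); that estimate comes from the same pair of libraries and includes whatever differs between them. Under it 0 of 129 miRNAs were called, with 5 at an unadjusted p under 0.05.

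**Figure D4:**
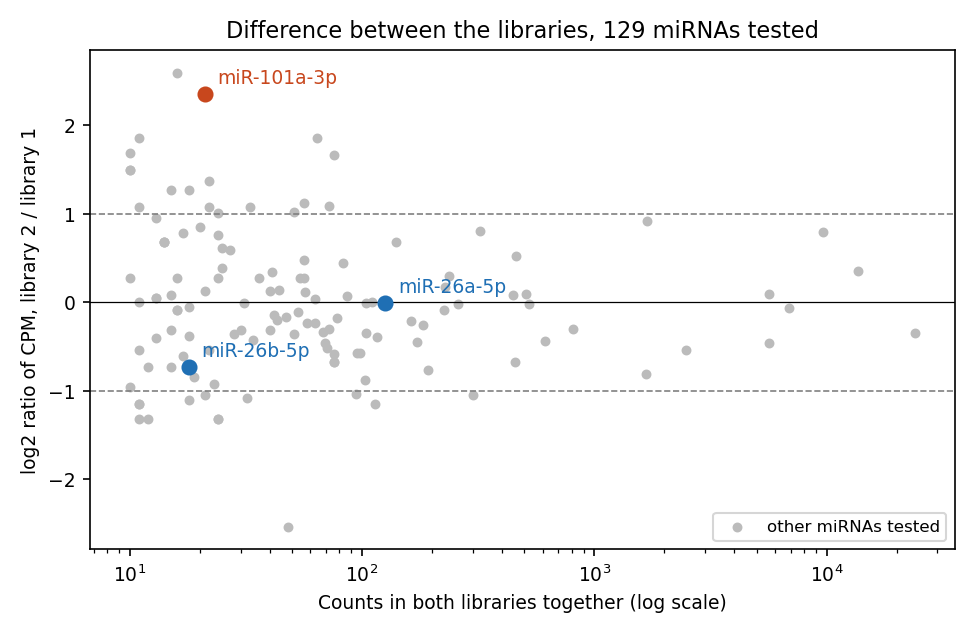
Log2 ratio of CPM, library 2 over library 1 (y axis), for the 129 miRNAs tested. The x axis gives the counts of both libraries together on a log scale. Grey points are other miRNAs, and dashed lines mark 2-fold. Counts of 3 or fewer were set to 3. Where this raised a count, the size of the difference, in either direction, is a lower bound. The point of miR-101a-3p lies at 2.36, miR-26a-5p close to 0 and miR-26b-5p at -0.73, and the spread is widest at low counts.

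The miRNAs whose levels were most like those of the members were found by the distance of log2(CPM + 1) over the 2 libraries, among the 129. Nearest to miR-26a-5p were miR-467a-5p, with 60 and 50 counts (distance 0.28), and miR-30a-5p, with 71 and 45 (0.34). Nearest to miR-26b-5p were miR-290a-5p, with 13 and 6 counts (0.12), and miR-34c-5p, with 11 and 6 (0.13). Nearest to miR-101a-3p, at a larger distance, were miR-143-3p, with 6 and 12 counts (0.77), and miR-92a-1-5p, with 7 and 15 (0.82). The first of these is a miRNA of fibroblasts and smooth muscle. The 5 listed fibroblast or feeder miRNAs summed to 7 counts in library 1 and 14 in library 2, and 3 of the 5 had a count. Most of both sums came from miR-143-3p itself, with 6 and 12, which was not called between the libraries. The marker miR-145a-5p went the other way, with 1 and 0 counts, and miR-199a-3p had 0 and 2. Both miR-199a-5p and miR-214-3p were at 0 in both libraries. The part of these 5 miRNAs in the difference of miR-101a-3p was not tested.

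Other miRNAs described as binding Ezh2 mRNA were scarcer than miR-26a-5p. The list of 15 held 9 arms of the let-7 family with miR-98, miR-138-5p, miR-214-3p, miR-124-3p, miR-137-3p, miR-217-5p and miR-144-3p. Together they had 28 counts in library 1 and 12 in library 2, 6 of the 15 had a count in either, and the other 9 were at 0 in both, so the median was 0 CPM in each library. The highest was let-7f-5p, a member of the family known for promoting differentiation, with 18 and 6 counts, or 398 and 160 CPM. In library 1 let-7f-5p had more counts than miR-26b-5p (12) and miR-101a-3p (4). In library 2 it equalled miR-26b-5p (6) and was below miR-101a-3p (17). Of the 15, let-7f-5p was the only one tested and was not called (Fisher's exact test, adjusted p = 0.219). Outside let-7, miR-138-5p alone had counts, 1 in library 1 and 2 in library 2.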

How the data were processed

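Small RNA libraries of total RNA (TruSeq kit, per the labels' protocols) were sequenced from 2 Dicer knockout samples. The authors deposited a table of raw, whole counts, with 1 row per mature miRNA and 1 column per sample. The submitters' processing notes name cutadapt, STAR, featureCounts and mm10, without settings or versions; the handling of reads that match several miRNAs is not given in the sources used here. The build mm10 is GRCm38, the build of the GENCODE M21 annotation and RefSeq sequences used here. RefSeq sequences matched 1623 of 1907 names, including all 10 members.

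Named were all members, the 2 nearest miRNAs of each member with at least 10 counts, entries with like seeds and fixed lists. Members and lists were chosen with earlier results of these data known. Shares carry Wilson intervals, levels exact Poisson intervals and ratios exact binomial intervals. The Fisher test was tested on simulated data that held counting noise only, so that check does not cover further variation between libraries. Alternatives changed library scale, count filter, fold minimum, denominators and detection minimum; 2 were added after seeing the data. Tools were Python 3.11.15, scipy 1.17.1, pandas 2.3.3, R 4.3.3 and edgeR 4.0.16.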

Additional observations from a re-analysis of the deposited data

How the results depend on the processing

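The call of miR-101a-3p between the libraries held when the library scale left out the 10 most abundant miRNAs, used TMM factors or summed miRNAs numbered 1000 or below, without a count filter, with at least 20 counts, without a fold minimum and with miR-101c joined to it: its log2 ratio ran from 2.36 to 2.67, and the adjusted p of Fisher's exact test from 0.00156 to 0.0311. The number of members called was 1 in each of these and 0 with edgeR's estimated dispersion, which adds the variation between the libraries to counting noise; there the log2 ratio was 2.32 (edgeR, adjusted p = 0.465). Joining miR-101c and the dispersion estimate were chosen after seeing the data. Dropping the fold minimum could not lose the call. Joining miR-101c, counted in library 2 only, could only widen the difference. The count filters left the ratio and the unadjusted p of miR-101a-3p as they were and changed only the set adjusted over. The direction of miR-26a-5p depended on the scale, from -0.00458 as reported to 0.30 when the scale was miRNAs numbered 1000 or below, and no setting called it or miR-26b-5p, which had too few counts for the minimum of 20. With the 10 most abundant miRNAs out of the denominator the mean shares rose by construction to 1.45% for miR-26 and 0.248% for miR-101, and over miRNAs numbered 1000 or below to 0.790% and 0.144%. The members detected in both libraries, 1 as reported, were 3 at 3 counts, 5 at 10 CPM and 2 in either library alone. Leaving out entries without a listed other arm could not change the arm shares, which already count named arms only. No paired analysis was possible because both samples belong to a single group. The 3p arms of miR-26 and the miR-101 entries other than miR-101a-3p were under the 10 counts needed for the test between libraries. Whether deeper libraries would bring them above it was not tested.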
